A study of Mus musculus with 3 samples.

Results

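The genes described here are 46 genes of DNA replication and mitosis, 26 whose products copy DNA and 20 whose products divide the chromosomes, out of 21887 protein-coding genes measured. They were chosen by name as a textbook module, with earlier results of these data known. For each gene, the H3K4me3 peaks lying in the gene or within 5 kb of either end were collected in mm10, and the bp they covered, called breadth below, were counted at each time. Histone H3 trimethylated on lysine 4 (H3K4me3) marks the start of genes that are active or ready to be transcribed, and was mapped by chromatin immunoprecipitation and sequencing in mouse granulosa cells, the somatic cells that surround the oocyte. Wild type C57BL/6 females, postnatal day 21 to 28, received eCG (4 IU) to grow follicles and then hCG (5 IU) to trigger ovulation and luteinization. The 3 groups were cells before hCG (0 h), cells 4 h after it and cells 12 h after it, all from eCG-primed females and released by puncturing follicles. Each time had 1 library. No difference between times has a replicate check, no p-value can be given, and the number of mice behind each library is not stated by the submitters.

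Before a cell copies its DNA, the origin recognition complex, Cdc6 and Cdt1 load the MCM helicase onto origins, and Cdc45 and the GINS complex then switch it on. Genes for this machinery are transcribed before and during S phase under E2F factors, whereas genes for mitosis follow in G2 under the MYB-MuvB complex and FOXM1, and the DREAM complex represses both sets in resting cells. Granulosa cells divide rapidly in growing follicles and leave the cell cycle after the ovulatory surge, which hCG stands in for.

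The lists held 22236, 23662 and 20669 peaks at 0 h, 4 h and 12 h, covering 8.87, 10.1 and 8.93 Mb, and give no height, score or depth. The 12 h library alone ran in lane 5 and alone has peak names without the tag nolambda, so lane, any peak-calling difference and time cannot be told apart in values at 12 h. Granulosa markers carried peaks at 13, 14 and 13 of 16 genes, among them Cyp19a1 (aromatase), Fshr and Foxl2 at every time, and Amh was at 0 at every time. Markers of theca and stroma carried peaks at 0, 1 and 1 of 10 genes, endothelium at 2, 2 and 1 of 10, leukocytes at 2, 3 and 2 of 10, oocyte at 1, 1 and 1 of 10 and erythroid cells at 3, 4 and 3 of 8. Markers of unrelated lineages carried peaks at 0, 1 and 0 of 10 genes. The theca gene Cyp17a1 and the endothelial gene Pecam1 were at 0 at every time. The summed breadth of the granulosa markers was 16855, 13620 and 9185 bp, and 11 of the 12 with a peak at both 0 h and 12 h were narrower at 12 h than the median gene. The leukocyte markers Csf1r, Adgre1, Spi1, Itgam, Lyz2, Tyrobp and Cd3e were at 0 at every time. The leukocyte list summed to 2109, 3167 and 1952 bp. This came from Cd68 (838, 1529 and 891 bp) and Cd79a (1271, 1499 and 1061 bp). The pan-leukocyte gene Ptprc added 139 bp at 4 h and had 0 at the other times. The part of these shifts in the results below was not tested. In such bulk material, a mark lost from some cells and a narrower mark in every cell cannot be told apart.

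Promoters of the 2 sets differed in the motifs they hold, and 6 are shown because their genes had some of the largest differences in breadth between times (Cdc6, Mcm3, Ccnb2 and Ttk) or carry many motif copies (Mcm6 and Top2a). Sequences are from RefSeq (GRCm38.p6, the mm10 build), 250 bases before to 50 after the listed start, 5′ to 3′ on the strand of the gene. Capitals mark matches, on either strand, to E2F motifs (TTTCCCGC, TTTGGCGC, TTTCGCGC or TTTGCCGC), to the cell cycle genes homology region, CHR (TTTGAA or TTCGAA), and to CCAAT, the NF-Y motif. The first 3 belong to replication genes and the last 3 to mitosis genes.
Cdc6 (chr11:98907901-98908200, plus strand): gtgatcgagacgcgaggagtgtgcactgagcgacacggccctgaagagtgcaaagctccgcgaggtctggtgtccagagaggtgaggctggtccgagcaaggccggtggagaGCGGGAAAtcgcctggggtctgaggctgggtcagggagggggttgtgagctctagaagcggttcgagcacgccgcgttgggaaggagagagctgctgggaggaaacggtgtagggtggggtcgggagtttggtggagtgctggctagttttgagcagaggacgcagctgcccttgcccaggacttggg
Mcm3 (chr1:20820263-20820562, minus strand): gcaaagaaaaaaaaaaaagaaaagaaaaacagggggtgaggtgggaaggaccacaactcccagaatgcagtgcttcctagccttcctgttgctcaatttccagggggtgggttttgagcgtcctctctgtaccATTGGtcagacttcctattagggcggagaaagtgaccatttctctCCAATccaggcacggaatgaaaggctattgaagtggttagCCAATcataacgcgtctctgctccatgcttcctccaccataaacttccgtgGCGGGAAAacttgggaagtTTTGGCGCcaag
Mcm6 (chr1:128359656-128359955, minus strand): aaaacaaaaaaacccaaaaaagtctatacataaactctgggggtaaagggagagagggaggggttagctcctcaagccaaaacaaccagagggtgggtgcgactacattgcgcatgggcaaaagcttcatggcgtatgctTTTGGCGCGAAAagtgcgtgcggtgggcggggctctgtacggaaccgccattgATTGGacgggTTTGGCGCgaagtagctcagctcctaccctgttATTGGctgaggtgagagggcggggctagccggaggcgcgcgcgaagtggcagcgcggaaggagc
Ccnb2 (chr9:70421505-70421804, minus strand): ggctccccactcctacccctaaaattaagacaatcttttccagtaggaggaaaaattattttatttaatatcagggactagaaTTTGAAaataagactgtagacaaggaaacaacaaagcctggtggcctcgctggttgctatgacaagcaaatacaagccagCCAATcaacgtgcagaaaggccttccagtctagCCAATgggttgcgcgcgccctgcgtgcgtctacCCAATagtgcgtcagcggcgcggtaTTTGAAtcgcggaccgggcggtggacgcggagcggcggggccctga
Ttk (chr9:83834439-83834738, plus strand): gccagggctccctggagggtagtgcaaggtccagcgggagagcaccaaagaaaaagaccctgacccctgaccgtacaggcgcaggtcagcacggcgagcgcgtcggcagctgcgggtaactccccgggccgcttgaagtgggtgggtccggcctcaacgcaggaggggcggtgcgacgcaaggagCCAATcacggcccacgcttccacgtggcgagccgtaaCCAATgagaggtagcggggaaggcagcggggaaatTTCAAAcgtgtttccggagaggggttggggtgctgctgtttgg
Top2a (chr11:99024140-99024439, minus strand): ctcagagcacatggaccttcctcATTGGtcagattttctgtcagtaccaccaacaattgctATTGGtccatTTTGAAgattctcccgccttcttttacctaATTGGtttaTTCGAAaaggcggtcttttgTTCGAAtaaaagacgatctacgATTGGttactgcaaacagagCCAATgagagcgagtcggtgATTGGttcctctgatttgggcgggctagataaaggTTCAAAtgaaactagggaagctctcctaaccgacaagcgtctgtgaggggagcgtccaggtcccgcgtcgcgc

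Among these, Cdc6 held 1 E2F match, at -138 from its listed start. That start lies 442 bp inside the annotated gene, so the whole Cdc6 sequence shown, with its match, lies inside the gene. Mcm6 held 3, of which those at -110 and -106 overlap in the run TTTGGCGCGAAA. Ccnb2 held CHR matches at -167 and 4 and CCAAT at -87, -54 and -21, and Top2a had the most of those shown, with 4 CHR and 6 CCAAT matches. A match is a string of letters and does not show that a factor binds.

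Of the members, 40 had a listed promoter, 22 replication and 18 mitosis genes. An E2F motif was present in 11 of the 22 replication promoters and 1 of the 18 mitosis promoters (5.56%, Cdk1), against 5.03% of the 9650 genes that had a peak within 2 kb of a listed start at any time, called marked genes below. CHR matches stood in 5 replication promoters (22.7%) and 14 mitosis promoters (77.8%), against 15.9% of marked genes. All 14 of those mitosis promoters also held CCAAT, a pairing found in 4 replication promoters (18.2%) and 8.20% of marked genes. The median GC content was 58.5% in replication promoters and 58.8% in mitosis promoters and 61.3% in those of marked genes. The part of base composition in these shares was not tested. No E2F motif lies in the shown promoters of the mitosis genes, and no CHR match in those of the replication genes.

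**Figure D1:**
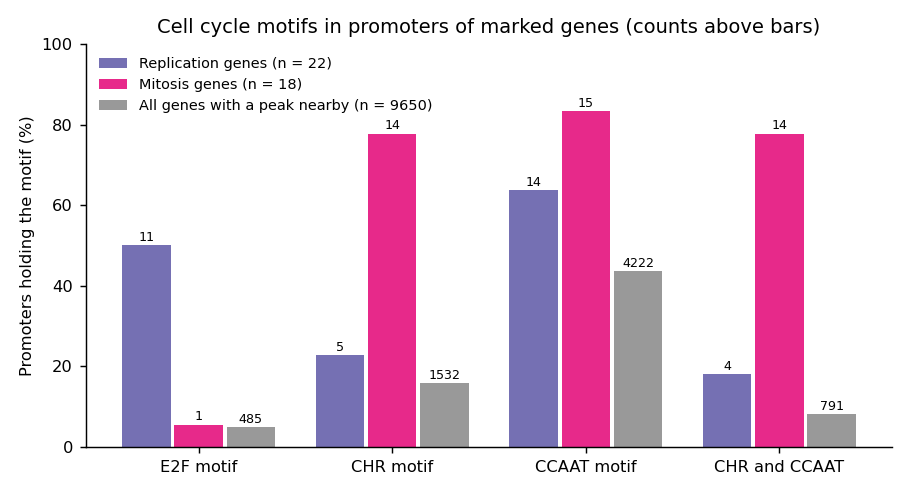
Share of promoters (y axis, percent) that hold each motif on either strand, for 22 replication genes, 18 mitosis genes and 9650 marked genes, with the number of promoters above each bar. E2F motifs were most frequent in replication promoters (11 of 22) and CHR matches in mitosis promoters (77.8%).

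Every member had a peak in its window at all 3 times, though not always at its own start. A peak was present in the gene or within 5 kb at 26 of 26 replication genes (95% Clopper-Pearson interval 86.8 to 100%, counting error only) and 20 of 20 mitosis genes (83.2 to 100%) in each library, against 56.3%, 58.3% and 56.2% of all genes at 0 h, 4 h and 12 h. None gained its first peak or lost its last, where 7.87%, 3.59% and 5.89% of genes without a peak gained one (4 h over 0 h, 12 h over 4 h, 12 h over 0 h) and 2.58%, 6.22% and 4.81% of genes with a peak lost all. Since all members had a peak to begin with, no gain was possible among them. With windows of 1 kb, 26, 25 and 25 replication genes had a peak, and with peaks nearer to another gene left out 24, 22 and 23 replication genes and 19, 19 and 19 mitosis genes. The shares of all genes given above are for windows of 5 kb with all peaks, and those under these other settings are not given. Replication genes had a median breadth of 908.5, 832.5 and 791 bp at 0 h, 4 h and 12 h, and mitosis genes 1218.5, 1226.5 and 1068 bp. Genes with a peak in general had 852, 916 and 845 bp. The mitosis genes were thus the broader set at each time, and both sets had their lowest median at 12 h. More bp at 4 h than at 0 h were covered at 16 of 26 replication genes, although their median was lower at 4 h. At 10 of 20 mitosis genes there were more bp, and over all genes 8111 had more and 4940 fewer. Fewer bp at 12 h than at 0 h were covered at 16 of 26 replication genes and 15 of 20 mitosis genes, where 51.7% of all genes with a peak at both times had fewer.

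**Figure D2:**
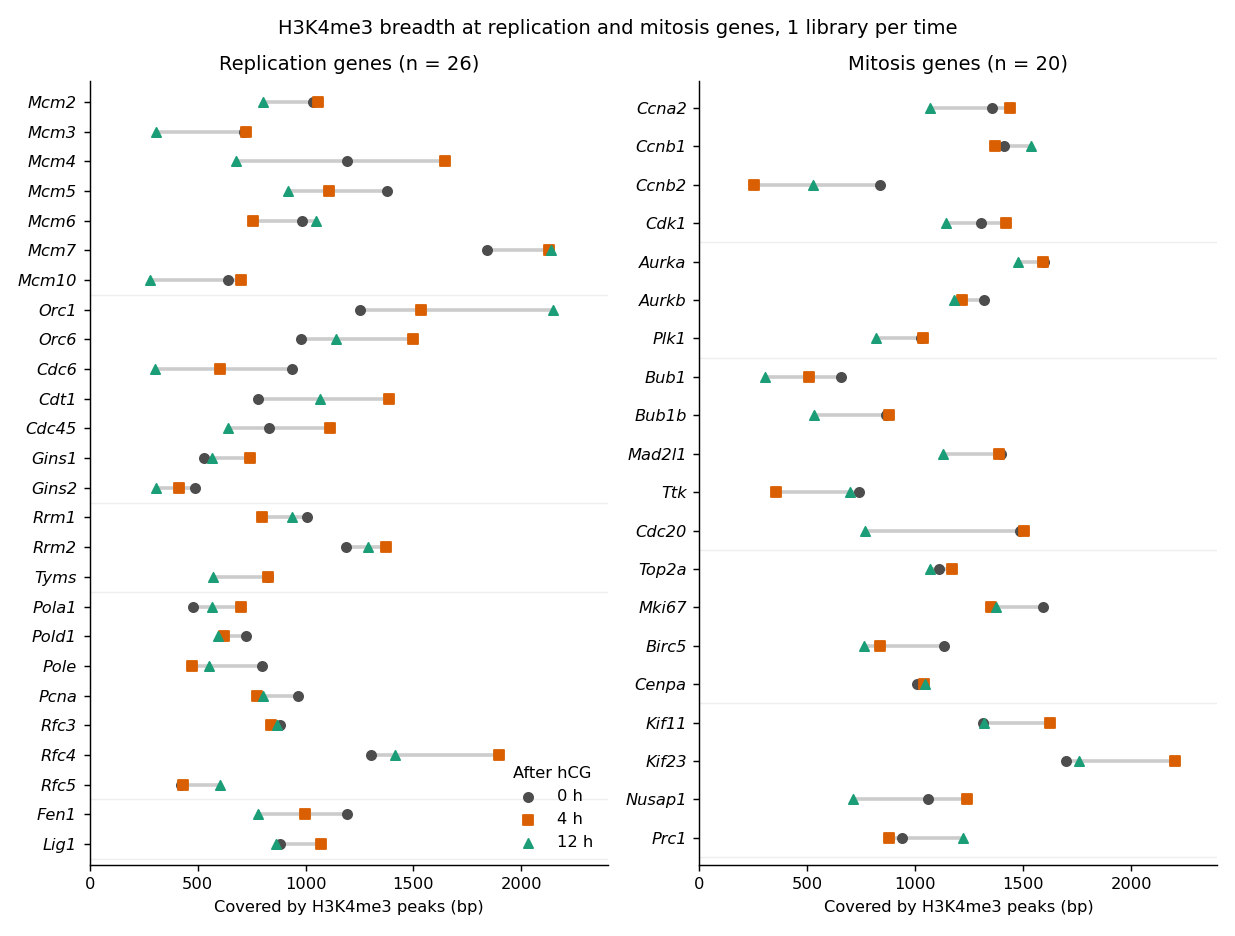
Breadth of every member (x axis, bp covered by peaks in the gene or within 5 kb), with 1 point per library at 0 h, 4 h and 12 h, replication genes on the left and mitosis genes on the right, ordered by role. The 12 h triangle lies left of the 0 h circle at 16 of 26 replication genes and 15 of 20 mitosis genes, and at 51.7% of all genes with a peak at both times.

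The helicase subunits split into genes with fewer bp at 12 h than at 0 h and a pair with more. Mcm3 (chr1:20802966-20820312), a subunit of the MCM hexamer, had 714 bp at 0 h, 725 at 4 h and 308 at 12 h. Mcm10 (chr2:4990724-5012791), which helps to activate the loaded helicase, had 640, 701 and 280 bp. Mcm4 (chr16:15623897-15637400) had 1191, 1644 and 679 bp. All 3 had more bp at 4 h than at 0 h and the fewest at 12 h, with centred log2 ratios of 12 h over 4 h of -1.10, -1.19 and -1.14, where the median over all genes is set to 0. Mcm2 (1034, 1057 and 802 bp) and Mcm5 (1376, 1109 and 921 bp) were also narrower at 12 h than at 0 h, whereas Mcm6 (985, 756 and 1050 bp) and Mcm7 (1839, 2127 and 2135 bp) were not. Mcm7 was the broadest replication gene over the 3 times, but 1688, 1917 and 1806 of its bp lay nearer to the end of another gene. At Mcm4, 565, 539 and 217 bp lay nearer to Prkdc. Over these 7 genes, 5 had fewer bp at 12 h than at 0 h (51.7% of all genes), with a median centred log2 ratio of -0.56.

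Mcm2 needs a reservation about where its peaks lay. Within 2 kb of its start it had 262 bp at 0 h and 0 at both later times. All bp at 4 h and 12 h lay farther upstream, towards Tpra1, a gene on the other strand whose start is 3471 bp away. At its own start Mcm2 thus had a peak in the 0 h list and none in the others, which the breadth of its window does not show.

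Cdc6 (chr11:98907709-98923942), which loads the helicase onto origins, had the lowest ratio of 12 h to 0 h breadth of any member. It had 935 bp at 0 h, 602 at 4 h and 304 at 12 h, a centred log2 ratio of -1.60 for 12 h over 0 h. Its loading partner Cdt1 was broader at both later times, with 779, 1388 and 1065 bp, of which 424, 788 and 670 bp lay nearer to Aprt. Orc1, the largest subunit of the origin recognition complex, had 1251, 1534 and 2145 bp, the highest ratio of any member (0.80 on the centred log2 scale for 12 h over 0 h), and Orc6 had 981, 1498 and 1142 bp. At Orc1 most of the breadth lay beside the start of the neighbouring Cc2d1b, which is 40502 bp from that of Orc1, and within 2 kb downstream of its own start it had 0, 189 and 330 bp. Cdc45, part of the active helicase, had 829, 1112 and 639 bp. Of these, 829, 967 and 639 bp lay upstream of its listed start, on the side of Ufd1, whose start is 322 bp away. Downstream it had 0, 145 and 0 bp. Its upstream breadth cannot be told apart from the mark of Ufd1. The GINS partners of Cdc45 were narrow, with 531, 745 and 565 bp at Gins1 and 489, 414 and 305 bp at Gins2. The 7 licensing and firing genes had no common direction at 12 h, with 3 of 7 having fewer bp than at 0 h.

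Genes acting at the fork had no common direction. The clamp Pcna had 963, 773 and 804 bp, and the clamp loader subunits Rfc3, Rfc4 and Rfc5 had 881, 840 and 870 bp, 1304, 1896 and 1414 bp, and 422, 431 and 603 bp. The catalytic subunits of the polymerases were narrow, Pola1 with 479, 700 and 565 bp, Pold1 with 725, 624 and 594 bp and Pole with 799, 476 and 552 bp. Their 7-gene group had a median centred log2 ratio of 0.00 for 12 h over 0 h. Okazaki fragments are trimmed and sealed by Fen1 (1193, 999 and 780 bp) and Lig1 (882, 1070 and 863 bp). By nearest annotated gene end, all bp at Lig1 lay nearer to another gene at each time. At Pole 559, 476 and 382 bp did so, which is all of its bp at 4 h. Part of the bp at Pcna, Pold1, Rfc4 and Fen1 also lay nearer to another gene. Of the genes of nucleotide supply, Rrm1 (1009, 797 and 935 bp) and Rrm2 (1188, 1375 and 1290 bp) encode ribonucleotide reductase, and Tyms (824, 825 and 571 bp) thymidylate synthase. Of these 3, Tyms had the lowest centred log2 ratio of 12 h over 0 h (-0.51).

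Among the mitosis genes, the spindle checkpoint group had the lowest median ratio of 12 h to 0 h breadth, with members spread from Bub1 (-1.08) to Ttk (-0.07). Bub1 (chr2:127800197-127831859), a checkpoint kinase at kinetochores, had 657 bp at 0 h, 507 at 4 h and 306 at 12 h (centred log2 ratio -1.08 for 12 h over 0 h). Its relative Bub1b had 864, 878 and 529 bp, and Mad2l1, which holds the checkpoint signal, 1396, 1387 and 1130 bp. Cdc20, the activator of the anaphase-promoting complex that the checkpoint restrains, had 1487, 1506 and 767 bp. With Ttk, all 5 checkpoint genes had fewer bp at 12 h than at 0 h, with a median centred log2 ratio of -0.69, where 51.7% of all genes had fewer bp. The role groups were drawn up after the values were seen, and Ccnb2 (-0.65), Birc5 (-0.55) and Nusap1 (-0.55) outside this one lay below Mad2l1 (-0.29) and Ttk within it.

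Ccnb2 and Ttk had another course, narrowest at 4 h. Ccnb2 (chr9:70407689-70421554), a B-type cyclin, had 836 bp at 0 h, 252 at 4 h and 525 at 12 h. Ttk (chr9:83834651-83872390), the kinase that starts the checkpoint, had 740, 355 and 697 bp. Their low 4 h values enter both 4 h over 0 h (centred log2 -1.85 and -1.18) and 12 h over 4 h (1.20 and 1.11), so these are not independent changes and rest on the 4 h library alone. The other B-type cyclin in the set, Ccnb1, stayed broad with 1411, 1371 and 1538 bp, as did its kinase Cdk1 with 1304, 1420 and 1142 bp, and Ccna2 had 1357, 1439 and 1069 bp.

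Mitotic kinases and structural genes were mostly broad at all times. Aurka, the centrosome kinase, had 1597, 1590 and 1477 bp, its paralogue Aurkb 1319, 1215 and 1178 bp and Plk1 1026, 1037 and 820 bp. The proliferation antigen Mki67 had 1594, 1351 and 1374 bp and topoisomerase Top2a 1109, 1172 and 1067 bp. Cenpa, the centromeric histone H3, had 1007, 1040 and 1047 bp, close together, whereas the passenger protein Birc5 had 1133, 838 and 762 bp. Among the spindle genes, Kif23, a motor of the central spindle, had the most bp in its window of all mitosis genes (1699, 2204 and 1758 bp). Kif11 had 1315, 1626 and 1318 bp, Prc1 938, 878 and 1220 bp and Nusap1 1057, 1238 and 711 bp. Nusap1 was the 1 gene of these 4 with fewer bp at 12 h than at 0 h. At Kif23, 650, 1062 and 1019 bp lay nearer to another gene, leaving 1049, 1142 and 739 bp, fewer than at Mki67. At Prc1 all bp lay nearer to another gene's end, and at Nusap1 733, 945 and 523 bp.

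Relative to the median gene, the medians of both sets lay slightly on the narrow side in every comparison. With peaks within 1 kb joined, 2 of these were slightly above 0, that of replication genes at 4 h over 0 h (0.07) and that of mitosis genes at 12 h over 4 h (0.05). Replication genes had median centred log2 ratios of -0.08 (4 h over 0 h), -0.19 (12 h over 4 h) and -0.17 (12 h over 0 h), with 14, 16 and 15 of 26 below the median gene. Mitosis genes had -0.11, -0.08 and -0.18, with 16, 10 and 15 of 20 below it. Differences of medians (replication minus mitosis) were 0.03, -0.12 and 0.02. That at 12 h over 0 h depended on the counting, at 0.33 with narrow peaks left out, 0.22 in the 2 kb downstream of starts and 0.20 with 1 kb windows, and -0.12 with peaks joined. Uncentred, all genes had medians of 0.12, -0.14 and -0.02. The 3 comparisons share libraries pairwise.

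Changes of 2-fold or more were few. At 4 h over 0 h, 0 replication and 2 mitosis genes (Ccnb2 and Ttk) were that much narrower, where 3.68% of all genes were, and 0 members were that much broader, where 5.30% were. At 12 h over 4 h, 3 of 26 replication genes (Mcm3, Mcm4 and Mcm10) and 0 mitosis genes were narrower (4.48% of all genes), and 0 replication and 2 of 20 mitosis genes (Ccnb2 and Ttk) broader (3.36%). At 12 h over 0 h, 3 of 26 replication genes (Cdc6, Mcm3 and Mcm10) and 1 of 20 mitosis genes (Bub1) were narrower (4.93%), and 0 members were broader (5.35%). Short of that size in 12 h over 0 h were Cdc20 (-0.94), Mcm4 (-0.79) and, on the broader side, Orc1 (0.80), and just past it Bub1 (-1.08). The narrower replication genes make 11.5% of their set at 12 h over 0 h and the narrower mitosis gene 5.00%. Each count is 0 to 3 genes, and 3 genes are too few to set apart from the share of all genes here.

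**Figure D3:**
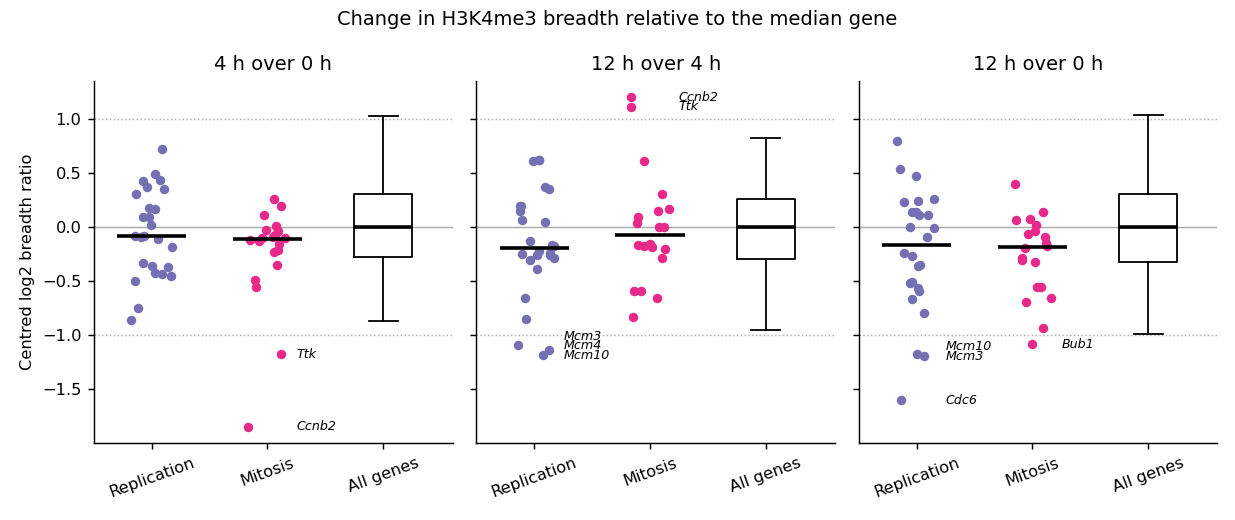
Centred log2 breadth ratios (y axis, the median gene at 0) in the 3 comparisons, with 1 point per member, black lines at each set's median and, for all genes, a box from the 25th to the 75th percentile with whiskers at the 5th and 95th. Dotted lines mark 2-fold, and the members past them are named, Cdc6 lowest in 12 h over 0 h at -1.60.

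The position of the peaks showed which part of the mark differed. Peaks lay mostly just downstream of the listed start, and the start base itself was covered at 2 of 22 replication genes at each time and at 1, 0 and 0 of 18 mitosis genes, against 10.6%, 13.5% and 12.1% of marked genes. Coverage was highest 350 bp downstream at replication genes at 0 h (68.2%) and 450 bp downstream at mitosis genes (94.4%), against 62.3% of marked genes at 350 bp. The members differed between times mainly in the band from 500 to 1000 bp downstream. There the mean share of genes covered was 47.3%, 39.5% and 31.8% at replication genes at 0 h, 4 h and 12 h and 83.9%, 73.3% and 59.4% at mitosis genes, against 44.8%, 47.7% and 44.1% at marked genes. In the first 500 bp it was 52.3%, 55.5% and 52.7% at replication genes and 70.6%, 66.7% and 66.7% at mitosis genes, against 49.4%, 54.3% and 51.1% at marked genes. From 1000 to 1500 bp the values were 20%, 20.9% and 16.4% at replication genes, 23.9%, 22.8% and 21.1% at mitosis genes and 15.0%, 18.8% and 16.0% at marked genes. Single distances were uneven, and at 1100 bp 4, 8 and 5 of 22 replication genes and 5, 7 and 6 of 18 mitosis genes were covered. The bands were picked after the profile was seen.

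**Figure D4:**
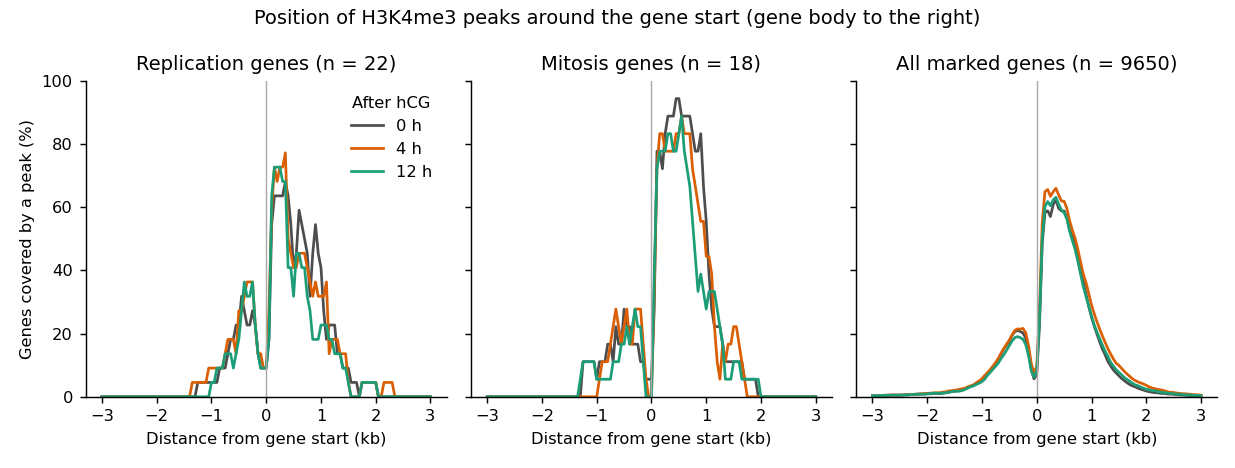
Share of genes covered by a peak (y axis, percent) at each distance from the listed start (x axis, kb, gene body to the right), with 1 line per library, for 22 replication genes, 18 mitosis genes and 9650 marked genes. At the members the 12 h line lies below the 0 h line mainly between 500 and 1000 bp (means 47.3% at 0 h and 31.8% at 12 h for replication genes, 83.9% and 59.4% for mitosis genes), and the lines cross farther in, whereas the 0 h and 12 h lines of all marked genes nearly coincide.

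The far edge of the mark stood nearer the start at 12 h. The last covered base within 2 kb downstream had a median position of 839.5, 850.0 and 637.5 bp at replication genes. At mitosis genes it was 1060.5, 975.0 and 957.5 bp, against 818.0, 839.5 and 812.0 bp over all genes. Each median is over genes with downstream bp at that time. These were 20, 21 and 20 replication genes, 18 mitosis genes each time and 8472, 8734 and 8398 of all genes. From 0 h to 12 h the last covered base moved nearer to the start at 13 of 19 replication genes, by a median of -260 bp over all 19. It did so at 13 of 18 mitosis genes, by a median of -93 bp. Of the 7912 genes with downstream bp at both times, 49.6% moved that way, with a median of 0. The near edge hardly moved, with medians of -1 and -9 bp. Bub1 shows the pattern plainly. Its single peak began 45, 60 and 48 bp from the start and ended at 701, 566 and 353 bp. At Mcm3 the peaks reached 1072, 975 and 398 bp, at Mcm10 1015, 1100 and 368 bp and at Tyms 1063, 1141 and 617 bp. These genes had fewer separate peaks at 12 h, with 3, 2 and 1 at Mcm3 and at Mcm10 and 2, 2 and 1 at Tyms. A far peak absent from the list thus moves this edge. At Cenpa the single peak kept both edges, 78 to 1084 bp at 0 h, 78 to 1117 bp at 4 h and 72 to 1118 bp at 12 h. Ccnb2 lost its far peak at 4 h and had it again at 12 h, with ends at 980, 311 and 947 bp.

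By the bp within 2 kb downstream of the start, the medians were 648.5, 659 and 464 bp at replication genes and 906.5, 872 and 625.5 bp at mitosis genes, against 569, 625 and 569 bp at marked genes. Fewer bp were covered at 4 h than at 0 h at 10 of 22 replication and 10 of 18 mitosis genes (38.4% of all genes). The counts were 14 of 21 and 12 of 18 (61.5%) for 12 h than at 4 h, and 13 of 21 and 13 of 18 (49.2%) for 12 h than at 0 h. These shares are over the 9062, 9059 and 8958 genes with downstream bp at either time of the pair. The 12 h over 4 h counts lie close to the share of all genes. Among the 8472 genes with downstream bp at 0 h, 17.7% had fewer bp at each later time. Of the members with such bp, 5 of 20 replication genes (Mcm5, Mcm7, Cdc6, Pold1 and Fen1) and 5 of 18 mitosis genes (Cdc20, Aurka, Plk1, Bub1 and Mad2l1) had that order. The opposite order was seen among these members at Rfc4, Rfc5 and Cenpa (15.6% of the 8472), and also at Orc1, which had 0 bp at 0 h and is outside this count.

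At several of these genes the 2 kb on either side of the listed start did not move together. Cdc6 had 675, 353 and 28 bp downstream of its listed start, while the upstream side had 260, 249 and 276 bp. Fen1 had 883, 597 and 362 bp downstream and 310, 402 and 418 bp upstream. Aurka had 975, 866 and 636 bp downstream and 622, 724 and 841 bp upstream. At each of these 3, the lower breadth was downstream of the listed start. At Fen1 and Aurka, the bp nearer to another gene's end fell and the rest rose (values below). Listed starts can lie inside the annotated gene, by 442 bp at Cdc6, 316 bp at Aurka and 472 bp for a start of Fen1, and at Cdc6 all bp on both sides lie inside the gene. Pold1 (495, 272 and 166 bp) and Bub1 (657, 507 and 306 bp) had no peak within 2 kb upstream at any time. Mcm5 differed, with 924, 802 and 667 bp downstream and 452, 307 and 254 bp upstream, both lower at each later time.

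**Figure D5:**
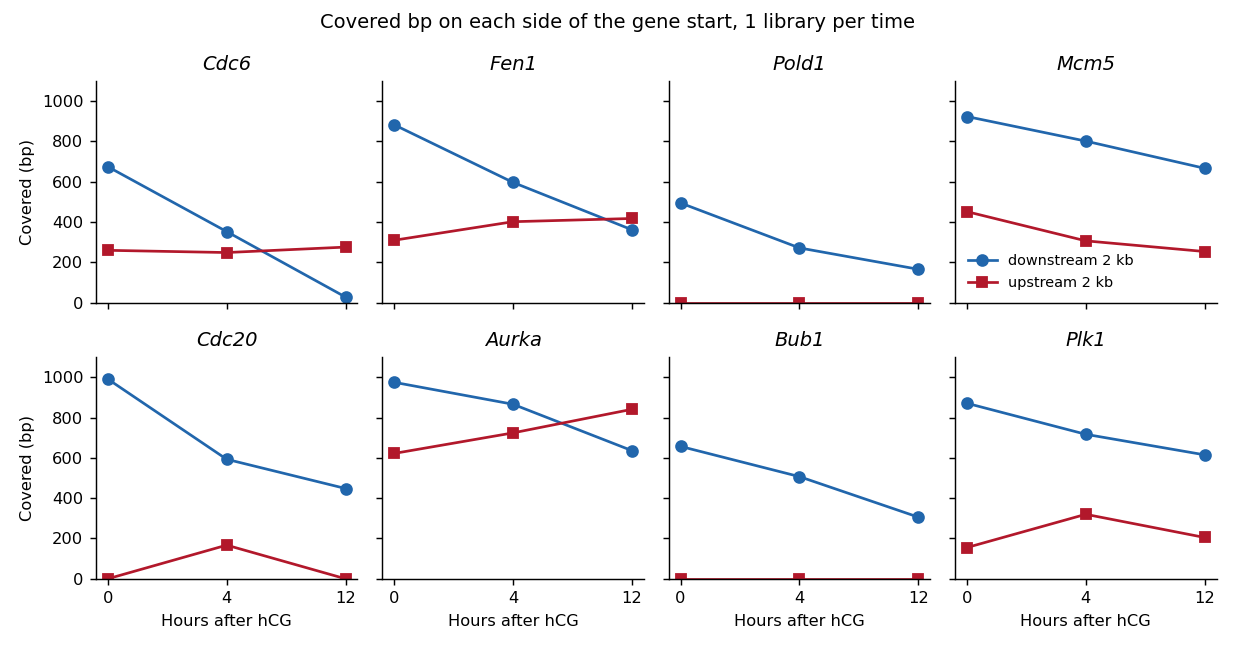
Bp covered within 2 kb downstream (blue circles) and upstream (red squares) of the listed start (y axis) by hours after hCG (x axis), 1 library per time, for 8 of the 10 members whose downstream bp were lower at each later time, chosen for that order. At Cdc6 the downstream side had 675, 353 and 28 bp and the upstream side 260, 249 and 276 bp.

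The upstream mark went with a second gene in several cases. A start on the other strand, pointing away within 1 kb, was present at 5 of 22 replication genes (Mcm7 beside Ap4m1, Cdc45 beside Ufd1, Orc1 beside Prpf38a, Fen1 beside Tmem258 and Lig1 beside Zswim9) and 1 of 18 mitosis genes (Aurka beside Cstf1), against 14.8% of marked genes. The listed start of Orc1 lies 3749 bp inside its annotated gene. All 6 had upstream bp at all 3 times, as did 79.0% of marked genes with such a partner. Of members without a partner, 5 of 17 replication and 6 of 17 mitosis genes had upstream bp at all times, against 24.5% of marked genes. Upstream breadth at Fen1 and Aurka can therefore not be told apart from the mark of Tmem258 and Cstf1. Their downstream bp are not clearly their own either. By nearest annotated gene end, 753, 477 and 222 bp at Fen1 and 975, 866 and 636 bp at Aurka lay nearer to another gene. The remaining bp were higher at each later time, 440, 522 and 558 bp at Fen1 and 622, 724 and 841 bp at Aurka. Crowding was greater around replication genes, of which 20 of 26 had another gene's end within 5 kb, against 10 of 20 mitosis genes. Of the bp in their windows, 35.4%, 40.2% and 41.4% lay nearer to another gene at replication genes and 18.4%, 23.0% and 21.7% at mitosis genes. The same shares over all genes are not given here, so it is not known whether either set departs from them.

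Breadth was also set beside the promoter motifs. The 11 replication genes with an E2F motif had a median centred log2 ratio of 0.00 for 12 h over 0 h, and the 11 without had -0.24. The 14 mitosis genes with a CHR match had -0.13 and the 4 without (Birc5, Ccnb1, Mad2l1 and Nusap1) -0.42. Cdc6 and Mcm3, whose promoters are shown above with E2F matches, were among the 4 members past 2-fold narrower in 12 h over 0 h. Their promoters were shown because of such differences, and Mcm10 and Bub1 among these 4 held no E2F match. Mcm6, with 3 matches, had centred log2 ratios of 0.61 for 12 h over 4 h and 0.11 for 12 h over 0 h. No test was made of these splits.

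Genes of the same pathways outside the 46 had similar values. All 41 other replication genes had a peak at every time, with median centred log2 ratios of -0.09, -0.06 and -0.24 for the 3 comparisons, and 31 of 41 were below the median gene in 12 h over 0 h. Among them Tk1, thymidine kinase, had 298, 164 and 21 bp, the primase subunit Prim1 596, 168 and 153 bp and the polymerase alpha subunit Pola2 840, 331 and 353 bp. The 21 bp at Tk1 are the edge of a peak at the far end of its window, and no peak lay at its start at 12 h. Of 46 other mitosis genes, 46, 45 and 45 had a peak, with medians of -0.13, -0.01 and -0.16. Pttg1, securin, had 498, 0 and 403 bp, and the kinase gene Pbk 716, 278 and 0 bp. The 23 genes of E2F, RB and MuvB factors all had peaks, with medians of -0.13, 0.17 and -0.02. Within that list, Mybl2, the MYB of the G2 activator, had 214, 670 and 682 bp, and the E2F repressor genes E2f7 and E2f8 had 560, 954 and 316 bp and 576, 401 and 896 bp.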

How the data were processed

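H3K4me3 was mapped in granulosa cells at 0 h, 4 h and 12 h after hCG, with 1 library per time. Libraries had 18 PCR cycles and ran on a Genome Analyzer GAIIx, the 12 h library in lane 5 and the others in lane 4, per the labels. The authors deposited 1 peak list per library, holding positions in bp with no score or depth, so the depth is unknown. The submitters' processing notes name CASAVA 1.8, Bowtie2 2.2.3, MACS2 2.0.9 and mm10. The peak threshold and any use of input are not stated there. Peak names at 0 h and 4 h carry the tag nolambda and those at 12 h do not.

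From these lists, the bp covered per gene were computed for protein-coding genes of RefSeq GRCm38.p6 on chromosomes 1 to 19, X and Y (Python 3.11.15, numpy 2.4.6, pandas 2.3.3). Log2 ratios used genes with a peak at both times and were centred on their median. Starts and strands came from the RefSeq promoter table, which matched 40 of 46 members (not Mcm4, Gins1, Gins2, Pole, Ccna2 and Aurkb); chromosome 18 was not used in sequence counts. The code was checked on simulated data. With 1 library per time no test was made, and values are described by counts and medians beside those of all genes. The members and lists were chosen with earlier results of these data known. Values in all 3 libraries were due for members changed 2-fold or more and for the 5 broadest and 5 narrowest of each set, and others were added as members of their role. The side, edge, role and divergent-start measures were added after the data were seen. Alternatives were gene windows of 1 kb, windows around starts, joined peaks, narrow peaks left out, equal numbers of peaks, peaks nearer to another gene left out, members with close neighbours left out and the downstream 2 kb.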

Additional observations from a re-analysis of the deposited data

How the results depend on the processing

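Of 114 values recomputed under the alternatives, 106 kept their direction and stayed within an interval set by the spread among members, or within the interval of a count, although their sizes moved. At 12 h over 0 h the replication median ran from -0.27 to -0.05 and the mitosis median from -0.38 to -0.14, and their difference from -0.12 to 0.33 (narrow peaks left out). With peaks within 1 kb joined, the median centred log2 ratio of replication genes at 4 h over 0 h was 0.07 (-0.08 without joining), that of mitosis genes was -0.03 (-0.11), that of mitosis genes at 12 h over 4 h was 0.05 (-0.08), and the difference of medians (replication minus mitosis) at 12 h over 0 h was -0.12 (0.02). With members that have close neighbours left out, that difference was -0.10 at 12 h over 0 h and 0.00 at 4 h over 0 h (0.03 with all). In the 2 kb downstream of starts, an alternative added after the data were seen, the difference at 12 h over 4 h was 0.02 (-0.12). The cause was not tested. With peaks nearer to another gene left out, 22 of 26 replication genes had a peak at 4 h, by construction. The medians of both sets at 12 h over 0 h kept their sign under each alternative. No replicate could be left out and no paired analysis was possible because each time had 1 library. Depth is unknown, the narrowest peaks had 136, 139 and 152 bp, and a peak split or missed near the threshold changes breadth without a change in the mark.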

Other observations

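Peak number gave a further view of the members. Replication genes had 70, 75 and 56 peaks at 0 h, 4 h and 12 h (2.69, 2.88 and 2.15 per gene) and mitosis genes 42, 45 and 45 (2.10, 2.25 and 2.25 per gene), against 2.28, 2.33 and 2.11 per gene among the 11607 genes with a peak at all times. Replication genes with a single peak numbered 4, 3 and 9 of 26, and mitosis genes 6, 5 and 4 of 20, against 3370, 3321 and 4043 of those 11607. At 12 h the replication count was close to the share of all such genes. Of all bp covered at any time, the median share covered at all 3 times was 46.7% at replication genes and 52.3% at mitosis genes, against 48.7% at all such genes. It was highest at Cenpa (96.2%) and Rfc3 (89.7%) and lowest at Nusap1 (14.9%) and Pole (18.7%).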
